A study of Mus musculus with 6 samples.

Results

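Cytochrome P450 (CYP), UDP-glucuronosyltransferase (UGT) and sulfotransferase (SULT) genes, with the P450 electron donor gene Por, were examined in AML12 cells that had received Zac1 or EGFP. Genes were taken by symbol: all numbered Cyp, Ugt and Sult genes that the name pattern matched, plus Por, and without Cyp26a1, Cyp26b1, Cyp4a10 and Cyp4a14. The pattern does not match Cyp51, names ending in -ps, or names such as Cyp4a12a and Ugt8a. This gave 133 of the 49585 genes in the count table: 90 P450 genes, 21 UGT genes, 21 sulfotransferase genes and Por. The rule itself uses no measured value. The cells are AML12, an immortalised mouse hepatocyte line, and both groups carry a transfected construct. The 3 EGFP libraries (replicates 1, 2 and 3) come from cells given the open reading frame of EGFP, a fluorescent protein that serves as the control. The 3 Zac1 libraries (replicates 4, 5 and 6) come from cells given that of Zac1, the zinc-finger protein product of Plagl1, an imprinted gene. PolyA RNA was taken 24 h after transfection. The comparison asks which of these enzymes differ once Zac1 is over-expressed. All cells were of this 1 line, and nothing in the labels tells whether replicates were grown as separate cultures. The p-values therefore reflect the spread among these libraries alone, and that spread may be technical.

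P450 enzymes are heme proteins of the endoplasmic reticulum and mitochondria that insert oxygen into drugs, fatty acids, sterols and hormones. Those of the endoplasmic reticulum receive electrons from the reductase encoded by Por. UGT enzymes attach glucuronic acid and SULT enzymes attach sulfate, which makes the products more water-soluble and ready for export into bile or urine. In liver these genes are held at high levels by hepatocyte transcription factors and are induced by receptors that sense foreign compounds, among them the aryl hydrocarbon receptor (AhR), PXR and CAR. Hepatocytes in culture are known to lose much of this program.

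Total counts ran from 14801240 to 15145092 in the EGFP libraries and from 16104498 to 18302538 in the Zac1 libraries, so depth moved with the group. Plagl1 was read 39, 79 and 67 times in EGFP and 106033, 135108 and 148382 times in Zac1. All 9 hepatocyte markers looked up were counted often enough to test. Levels are given in CPM, the usual depth-scaled read count, in which a gene's reads are divided by the scaled library total. Summed, the 9 markers gave 4870 to 5197 CPM in EGFP and 4963 to 5380 in Zac1. The largest parts in EGFP were the keratin genes Krt8 (1748 CPM) and Krt18 (1580). Apob stood at 1355 CPM in EGFP and Hnf4a at 201, against 34.6 for albumin (Alb), 1.54 for Afp, 0.939 for Apoa1 and 0.827 for Serpina1a. Ttr, the transthyretin gene, was the only 1 of the 9 to pass, lower in Zac1 (67.4 ± 2.71 against 42.4 ± 4.46 CPM, SD, n = 3; edgeR log2 fold change -0.67, adjusted p = 0.000211). Summed over 4 bile duct markers the level was 363 to 402 CPM in EGFP and 385 to 409 in Zac1, most of it Krt19. The 6 stellate or fibroblast markers summed to 0.466 to 1.01 CPM in EGFP and 2.05 to 2.55 in Zac1, with Lrat and Dcn at 0 reads; most of this was Col1a1, a collagen gene, which passed as higher (1.54, adjusted p = 0.0164). The 4 macrophage or leukocyte markers summed to 2.16 to 2.48 CPM in EGFP and 1.52 to 1.68 in Zac1, and the 4 endothelial ones to 0.472 to 0.799 and 0.684 to 1.09. The part of these markers in the results was not tested.

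Upstream sequence is shown for 3 genes on which the values below turn: Cyp1a1 and Cyp1b1, the classical AhR-induced P450 genes, both of which AML12 cells expressed, and Ugt2b34, the only member past the test. Each run is the 250 bases before the RefSeq start of the gene (GRCm38.p6), 5′ to 3′ on the gene's strand. Capitals mark the AhR core GCGTG (or CACGC, its other strand) and the TATA box TATAAA.
Cyp1a1, chr9:57697363-57697612, plus strand: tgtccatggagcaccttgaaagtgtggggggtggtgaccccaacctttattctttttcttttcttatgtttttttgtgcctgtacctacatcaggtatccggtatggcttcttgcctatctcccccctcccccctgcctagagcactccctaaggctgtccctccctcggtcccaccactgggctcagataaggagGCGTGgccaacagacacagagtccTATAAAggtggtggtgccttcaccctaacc
Cyp1b1, chr17:79715062-79715311, minus strand: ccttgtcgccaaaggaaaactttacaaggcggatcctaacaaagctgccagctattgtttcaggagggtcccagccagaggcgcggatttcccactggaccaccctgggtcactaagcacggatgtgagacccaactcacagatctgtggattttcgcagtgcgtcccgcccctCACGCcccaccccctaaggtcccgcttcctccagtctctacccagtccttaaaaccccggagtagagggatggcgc
Ugt2b34, chr5:86906938-86907187, minus strand: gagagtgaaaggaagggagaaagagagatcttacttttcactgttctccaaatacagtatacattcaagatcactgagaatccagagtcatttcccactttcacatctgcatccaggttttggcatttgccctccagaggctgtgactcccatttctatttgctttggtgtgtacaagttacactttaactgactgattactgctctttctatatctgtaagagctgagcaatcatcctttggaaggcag
In Cyp1a1 an AhR core begins 54 bases and a TATA box 30 bases before the start. Cyp1b1 has an AhR core that begins 76 bases before it and no TATAAA. Neither motif was found in the Ugt2b34 window. RefSeq promoters were matched for 108 of the 133 genes (121 promoters). Searched on both strands, GCGTG was in 18.2% of these and in 28.2% of all 32851 promoters. TATAAA was in 30.6% against 12.4%, and the GC box GGGCGG in 15.7% against 32.7%. The 25 promoters of tested members gave other shares: 40% held GCGTG, 8% TATAAA and 32% the GC box. The palindrome GGGGCCCC, part of a site described for Zac1, was in 0 of the 121 and in 0.889% of all. None of these motifs contains another, although they may overlap in part. A match is a run of letters, not a shown binding site.

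AML12 cells expressed some members of each of these families. Of the 133 genes, 27 (20.3%) reached a mean of 10 reads over the 6 libraries and could be tested, against 24.5% of all genes in the table. Another 49 had some reads, and 57 (42.9%) had none in any library, against 56.1% of all genes. No reads at all in a group allows a level of up to 0.0669 CPM in EGFP and 0.0584 CPM in Zac1 (3 counts over the group, counting error only). In bulk RNA, fewer cells of a type and less RNA per cell cannot be told apart. Some members were read often, such as Cyp39a1 (5491 reads in all) and Ugt2b34 (4794). Several P450 genes known from adult mouse liver were nearly silent, with no liver sample here for comparison. Cyp2e1, the ethanol-inducible P450, had 0 reads in all 6 libraries. Cyp3a11, the main PXR target, had 1 read, in Zac1. Cyp2b10, the classical CAR target, had 0 reads in EGFP and 3 in Zac1. Cyp7a1, the rate-limiting enzyme of bile acid synthesis, had 1 read in EGFP and 0 in Zac1. Cyp8b1, which sets the cholic acid share of bile acids, had 0 reads. Cyp1a2 had 14 reads in EGFP and 8 in Zac1, far fewer than its neighbour Cyp1a1 on chromosome 9.

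**Figure D1:**
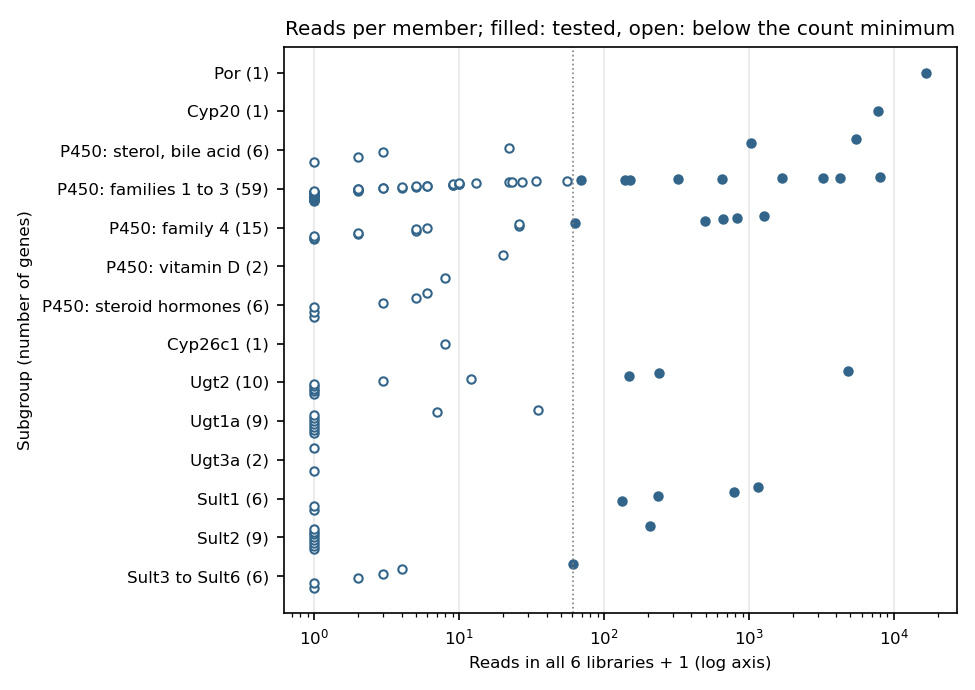
Reads in all 6 libraries plus 1 (log axis) for each of the 133 genes, by subgroup; filled points reached the mean of 10 reads (dotted line) and open points did not. Of 59 P450 genes of families 1 to 3, 9 were tested, and 0 of the 9 Ugt1a genes were.

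Expression followed the gene clusters only loosely. Members within 500 kb of each other on a chromosome were taken as 1 cluster. Of the 14 genes of the Cyp2c cluster on chromosome 19, 2 were tested, and 5 had no read. The Cyp2d cluster on chromosome 15 had 1 tested gene of 8, the Cyp2j cluster on chromosome 4 had 1 of 8, and the cluster of Cyp2s1, Cyp2b and Cyp2a genes on chromosome 7 had 1 of 13. The Cyp3a cluster of 6 genes on chromosome 5 had none. The Cyp4f cluster on chromosome 17, whose products hydroxylate fatty acids and leukotrienes, had 4 of 8 genes tested and no gene without reads. On chromosome 5 the Ugt2 genes lie beside Sult1b1, Sult1d1 and Sult1e1, and 5 of these 13 genes were tested. All 8 Sult2a genes on chromosome 7 were at 0 reads.

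Counts of near-identical genes are uncertain. The 9 Ugt1a genes share their last exons: in GENCODE M21, 50.3% to 60.6% of the exonic bases of each lie in exons of another gene on the same strand. How reads on shared exons were counted is not stated, so the 34 reads of Ugt1a7c, the 6 of Ugt1a10 and the 0 reads of the other 7 are uncertain. As a second measure, the share of 50-base runs of the longest transcript that also occur in a transcript of another gene was taken. It was 43.3% for Cyp2c68, 26.5% for Cyp4f16 and 21.7% for Cyp4f37. It was at most 14.8% in the other 24 tested genes, and 1.45% in Ugt2b34. Among genes at 0 reads it was 97% for Ugt2a1, 72.1% for Cyp2c40 and 62.1% for Sult2a2, but 0% for Sult2a7 and Sult2a8. Zero reads on genes with high shares are uncertain in the same way.

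Per exon length, Por was the most abundant of the 27 in EGFP, at 42.2 ± 0.151 CPM per kilobase of exon (FPKM; SD, n = 3), above 90.2% of tested genes or level with them. Cyp20a1, an orphan P450 with no settled substrate, stood at 34.8 ± 1.24 FPKM. Cyp3a13 followed at 29.2 ± 2.48, and it is the only member of the drug-metabolising CYP3A subfamily tested here. Cyp39a1, an oxysterol hydroxylase of bile acid synthesis, stood at 19.9 ± 1.64 FPKM, and Cyp1a1 at 16.4 ± 1.72. The SDs of Cyp39a1 and Cyp1a1 nearly met, so the order of these neighbours is not firm. Ugt2b34 stood at 13 ± 1.78 FPKM, which overlapped Cyp1a1 within the SDs, and Cyp2j6, which makes epoxides of arachidonic acid, at 9.91 ± 0.1. Among sulfotransferases, Sult1c2 (6.62 ± 0.604 FPKM) and Sult1a1, the phenol sulfotransferase (6.2 ± 1.07), were highest and did not differ beyond their SDs. The other 18 tested genes were below 5 FPKM, down to 0.204 for Cyp2c29. By reads, Cyp3a13, Cyp20a1 and Cyp39a1 made up 58.4% of the P450 total, and Ugt2b34 alone 91.7% of the UGT total.

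**Figure D2:**
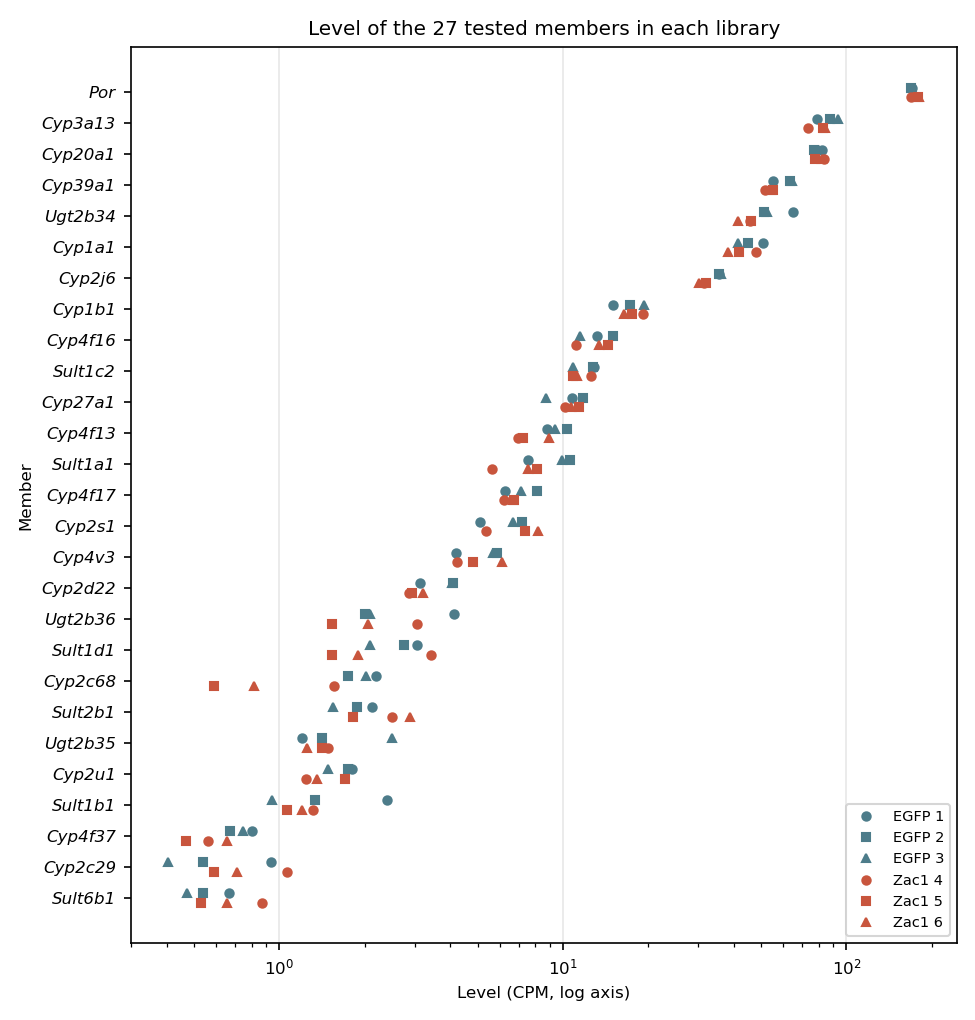
CPM (log axis) in each of the 6 libraries for the 27 tested genes, ordered by their EGFP mean. EGFP and Zac1 points mix in most rows; they separate for Ugt2b34, Cyp2j6, Cyp2c68 and Cyp4f37.

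Of the 27 tested members only Ugt2b34 differed between the groups past the threshold. By edgeR's quasi-likelihood test with Benjamini-Hochberg adjustment over 12130 genes, 1 of the 27 passed (3.7%), where 3.78% of all tested genes did. The member that passed, Ugt2b34, was lower in Zac1 (0.668% of all tested genes passed as lower). None of the 27 passed as higher, where 3.12% of all genes did: 0 were higher at an unadjusted p under 0.05, and 0 were higher by DESeq2 or by voom with quality weights. At an unadjusted p under 0.05 stood 6 of the 27 (22.2%), all lower, against 15.8% of all tested genes in either direction and 6.43% lower. Fold changes were below 0 for 19 of the 27 (70.4%) and for 50.5% of all tested genes, and the median log2 fold change was -0.13 against -0.002. These genes are somewhat poor in GC, with a median transcript GC of 44.9% against 49.4% for all tested genes. With offsets for GC content 19 of 27 were again below 0, and the median was -0.11. The EGFP and Zac1 libraries did not overlap for 4 of the 27 (14.8%), all lower in Zac1, where this held for 20.6% of all tested genes.

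The spread set what could be seen. The 95% intervals of 22 of the 27 fold changes lay within 2-fold in either direction, and 15 lay within 1.5-fold. The 5 that reached past 2-fold belonged to low-count genes: Cyp2c68, Cyp4f37, Sult1b1, Cyp2c29 and Sult6b1. For the other 22 a change of 2-fold or more lies outside the interval. The intervals of 6 of the 27 lay wholly below 0, and those of the other 21 held 0.

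**Figure D3:**
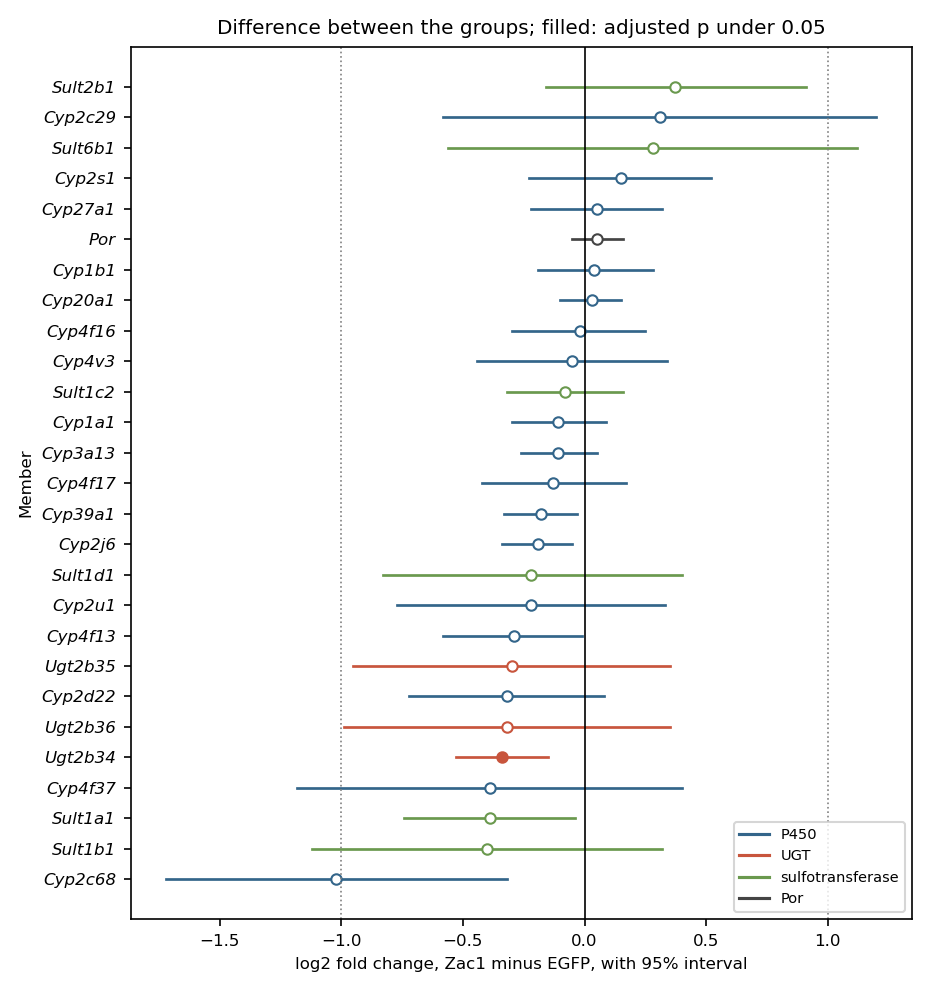
Log2 fold change of Zac1 minus EGFP with its 95% interval for the 27 tested genes, coloured by family; the filled point passed the test and dotted lines mark 2-fold. Points run from -1.02 (Cyp2c68) to 0.37 (Sult2b1), and 19 lie left of 0.

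Por, on which the microsomal P450 enzymes depend, differed by less than could be told from 0. It was read 2563, 2526 and 2512 times in EGFP, and 2710, 3057 and 3333 times in the deeper Zac1 libraries. After scaling these were 171, 169 and 170 CPM against 169, 179 and 181 CPM, and the groups overlapped. Its log2 fold change was 0.05 (SE 0.05, adjusted p = 0.648), with a 95% interval from -0.05 to 0.16. With GC offsets it was -0.03.

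Of the P450 genes of families 1 to 3, the drug-metabolising group, 9 were tested and 0 passed by edgeR; 2 were lower at an unadjusted p under 0.05, 0 were called by DESeq2 and 1 by voom. Cyp1a1, which oxidises polycyclic aromatic compounds, stood at 51, 44.9 and 41.6 CPM in EGFP and at 47.8, 41.7 and 38.3 CPM in Zac1. The groups overlapped, and the log2 fold change was -0.11 (SE 0.09, adjusted p = 0.622). Cyp1b1, a P450 of hydrocarbons and oestrogens, stood at 15, 17.2 and 19.4 CPM against 19.2, 17.6 and 16.4 CPM (log2 fold change 0.04, SE 0.11, adjusted p = 0.89), and its sign changed between settings. Both AhR-induced genes overlapped between the groups, Cyp1a1 at a higher level per length than Cyp1b1 (2.94 FPKM in EGFP). Cyp3a13 was read 1182, 1303 and 1381 times in EGFP and 1180, 1408 and 1552 times in Zac1. It was at 78.7, 87.4 and 93.2 CPM in EGFP and at 73.4, 82.6 and 84.3 CPM in Zac1 (log2 fold change -0.11, SE 0.07, adjusted p = 0.51). Cyp2j6 was the steadiest P450 within groups, at 35.4, 35.6 and 36.1 CPM in EGFP and 31.4, 32 and 30.2 CPM in Zac1. The groups stood apart, yet the difference of -0.19 (SE 0.07) did not pass (adjusted p = 0.161; 0.0733 to 0.441 over its alternatives).

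Cyp2c68 had the largest difference of the 27. It was read 33, 26 and 30 times in EGFP and 25, 10 and 15 times in Zac1. In CPM these were 2.2, 1.74 and 2.02 against 1.56, 0.587 and 0.815: Zac1 replicate 4 lay just below the EGFP libraries, and the other two Zac1 libraries lay far below. The log2 fold change was -1.02 (SE 0.33, 95% interval -1.72 to -0.32) and did not pass (adjusted p = 0.114). On all 6 libraries it passed with voom (-1.46, adjusted p = 0.00376) and by edgeR with no filter (-1.02, adjusted p = 0.0219). By edgeR it also passed without Zac1 replicate 4 (-1.49, adjusted p = 0.0112). The same held without EGFP replicate 1 and Zac1 replicate 4 together (-1.40, adjusted p = 0.00668). In the other 9 of its 13 alternatives it did not pass. Of its 50-base runs, 43.3% are shared with other transcripts. The other members of these families, Cyp2d22, Cyp2s1, Cyp2u1 and Cyp2c29, had log2 fold changes of -0.32, 0.15, -0.22 and 0.31, with adjusted p from 0.435 to 0.776.

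All 5 tested family 4 genes, fatty acid hydroxylases, had fold changes below 0, where 50.5% of all tested genes did. By edgeR, DESeq2 or voom 0 of the 5 passed. Lower at an unadjusted p under 0.05 was 1 of the 5, where 6.43% of all tested genes were. That was Cyp4f13, at 8.79, 10.3 and 9.38 CPM in EGFP and 6.97, 7.22 and 8.91 CPM in Zac1. Zac1 replicate 6 lay inside the EGFP range (log2 fold change -0.29, SE 0.13, adjusted p = 0.298). Cyp4f37 separated the groups at very low levels, 0.671 to 0.799 CPM against 0.469 to 0.652 CPM, with an adjusted p of 0.663. Cyp4f16, Cyp4f17 and Cyp4v3 were at -0.02, -0.13 and -0.05, and Cyp4f16 and Cyp4v3 changed sign between settings.

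Of the sterol and bile acid P450 genes, 2 of 6 were tested and 0 passed by edgeR, DESeq2 or voom, with 1 lower at an unadjusted p under 0.05. Cyp39a1 was read 827, 942 and 950 times in EGFP and 827, 943 and 1002 times in Zac1. It stood at 55, 63.2 and 64.1 CPM in EGFP and at 51.5, 55.3 and 54.4 CPM in Zac1. EGFP replicate 1 fell among the Zac1 values, and the log2 fold change of -0.18 (SE 0.07) did not pass (adjusted p = 0.228). It passed without EGFP replicate 1 and Zac1 replicate 4 together (-0.21, adjusted p = 0.0307). Cyp27a1, the mitochondrial sterol 27-hydroxylase, was at 8.71 to 11.8 CPM in EGFP and 10.2 to 11.4 CPM in Zac1 (log2 fold change 0.05, SE 0.13, adjusted p = 0.897); without EGFP replicate 3 it was -0.07. Cyp46a1, the cholesterol 24-hydroxylase, had 5 reads in EGFP and 16 in Zac1 and was not tested. Cyp20a1 was read 1237, 1143 and 1183 times in EGFP and 1340, 1324 and 1513 times in Zac1. These were 82.3, 76.7 and 79.9 CPM against 83.4, 77.7 and 82.2 CPM, which overlapped (log2 fold change 0.03, SE 0.06, 95% interval -0.10 to 0.15). Steroid hormone P450 genes were near 0: the 6 had 11 reads in all. The vitamin D genes Cyp27b1 and Cyp24a1 had 19 and 7 reads, and Cyp26c1 had 7. Of the other untested P450 genes, Cyp2j5 (54 reads), Cyp2c55 (33) and Cyp3a57 (26) had the most.

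Ugt2b34 (ENSMUSG00000029260; GRCm38 chromosome 5, 86889767 to 86906937, minus strand) was read 976, 761 and 776 times in EGFP and 733, 788 and 760 times in Zac1. In CPM these were 65, 51.1 and 52.4 against 45.6, 46.2 and 41.3. All Zac1 libraries lay below all EGFP libraries, and EGFP replicate 1 lay well above the other two. The log2 fold change was -0.34 (SE 0.09), a fold of 0.79 with a 95% interval of 0.692 to 0.902, and the adjusted p of 0.0496 was just under the threshold of 0.05. Without EGFP replicate 1 the change was -0.22 (adjusted p = 0.153). The call was also lost without EGFP replicate 3 (0.102), Zac1 replicate 5 (0.129) or Zac1 replicate 6 (0.241), with GC offsets (-0.24, adjusted p = 0.0968), with median-of-ratios (0.0514) or upper-quartile scaling (0.0523) and with a mean count of at least 50 (0.0758). It was kept by DESeq2 (0.0211) and by voom (0.0214), and all 14 alternatives gave a fold change below 0.

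**Figure D4:**
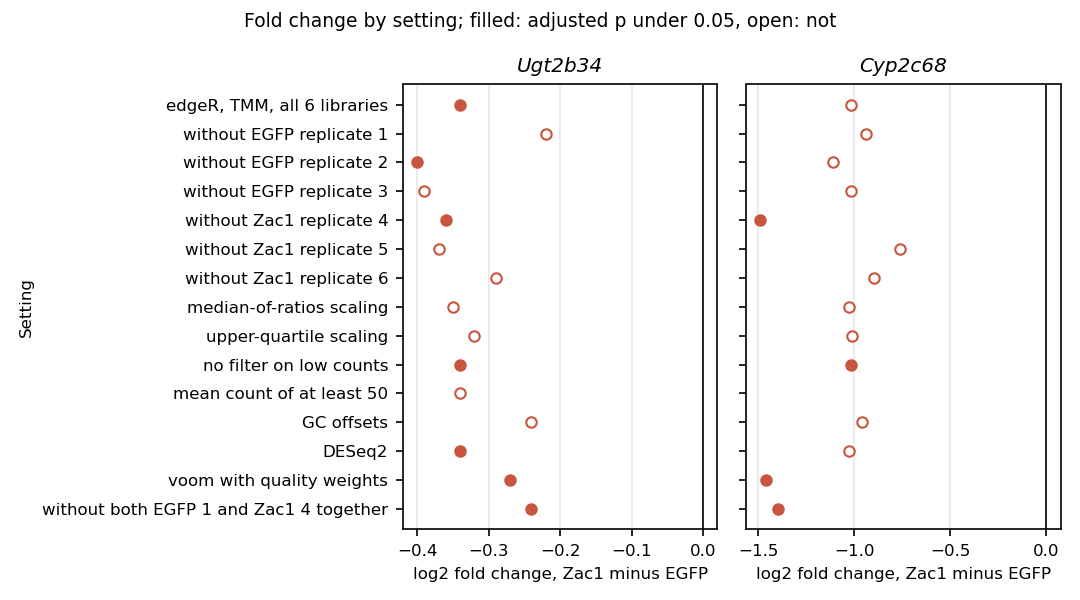
Log2 fold change of Ugt2b34 (left) and Cyp2c68 (right) under each setting; filled points have an adjusted p under 0.05. Ugt2b34 runs from -0.40 to -0.22 and passes in 6 of 14 alternatives; Cyp2c68 runs from -1.49 to -0.76 and passes in 4 of 13.

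The other two tested UGT genes had wide errors. Ugt2b36 had 62, 30 and 31 reads in EGFP and 49, 26 and 38 in Zac1. It stood at 4.13, 2.01 and 2.09 CPM in EGFP and 3.05, 1.53 and 2.06 CPM in Zac1 (log2 fold change -0.32, SE 0.31, adjusted p = 0.676). Ugt2b35 had 18, 21 and 37 reads in EGFP and 24, 24 and 23 in Zac1. It stood at 1.2, 1.41 and 2.5 CPM against 1.49, 1.41 and 1.25 CPM (-0.30, SE 0.30, adjusted p = 0.688). In each, 1 EGFP library was far above the other two, replicate 1 for Ugt2b36 and replicate 3 for Ugt2b35, and without it the sign turned (0.10 and 0.08). Among untested UGT genes the highest were Ugt1a7c (34 reads), Ugt2b5 (11, of which 10 in EGFP) and Ugt1a10 (6).

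Of the sulfotransferases, 6 of 21 were tested and 0 passed by edgeR, DESeq2 or voom; 1 was lower at an unadjusted p under 0.05. That was Sult1a1, with 113, 158 and 147 reads in EGFP and 90, 138 and 139 in Zac1. It stood at 7.52, 10.6 and 9.92 CPM in EGFP and 5.6, 8.1 and 7.55 CPM in Zac1. The lowest EGFP library overlapped the Zac1 values (log2 fold change -0.39, SE 0.16, adjusted p = 0.246). Sult1c2 had 194, 191 and 162 reads in EGFP and 202, 186 and 207 in Zac1. Its groups overlapped, at 12.9, 12.8 and 10.9 CPM against 12.6, 10.9 and 11.2 CPM (-0.08, SE 0.11, adjusted p = 0.788). Sult1d1, which sulfates catecholamines, had 46, 41 and 31 reads in EGFP and 55, 26 and 35 in Zac1. It was at 3.06, 2.75 and 2.09 CPM in EGFP and 3.42, 1.53 and 1.9 CPM in Zac1 (-0.22, SE 0.29). Sult1b1, a sulfotransferase of thyroid hormones, was at 2.4, 1.34 and 0.945 CPM against 1.31, 1.06 and 1.2 CPM (-0.40, SE 0.34). Its fold change turned to 0.05 without EGFP replicate 1. Sult2b1, the cholesterol sulfotransferase, had the highest fold change of the 27, 0.37 (SE 0.25, adjusted p = 0.506), with 1.55 to 2.13 CPM in EGFP and 1.82 to 2.88 CPM in Zac1. Sult6b1 was at 0.28 (SE 0.39). The 3 untested sulfotransferases with any read, Sult5a1, Sult3a1 and Sult4a1, had 3, 2 and 1 reads.

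Within groups, libraries EGFP 1 and Zac1 4 stood out together. In 17 of the 27 genes (63%) both were the highest of their group or both the lowest, against 42.6% of all tested genes. The opposite, 1 highest and 1 lowest, held for 4 of the 27 (14.8%) and for 15.5% of all. Both were highest for 9 genes: Cyp1a1, Cyp20a1, Cyp2c29, Cyp2c68, Ugt2b36, Sult1b1, Sult1c2, Sult1d1 and Sult6b1. Both were lowest for 8: Cyp2d22, Cyp2s1, Cyp39a1, Cyp3a13, Cyp4f13, Cyp4f17, Cyp4v3 and Sult1a1. The labels name nothing that these 2 libraries share.

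Summed over each family, levels were lower in Zac1. The 90 P450 genes summed to 379, 396 and 396 CPM in EGFP and 362, 369 and 371 CPM in Zac1, a ratio of means of 0.941. The 21 UGT genes summed to 71.3, 55.1 and 57.5 CPM against 50.6, 49.6 and 44.8 CPM (ratio 0.789), mostly from Ugt2b34. The difference of -12.94 CPM between the UGT means was -7.93 CPM without EGFP replicate 1. The 21 sulfotransferases summed to 28.8, 29.9 and 25.9 CPM against 26.3, 24.1 and 25.5 CPM (ratio 0.897), and these overlapped. All 132 genes together, without Por, gave 479, 482 and 479 CPM in EGFP and 439, 443 and 441 CPM in Zac1 (ratio 0.919). The groups did not overlap for P450, UGT and the whole. This held for 20.6% of single tested genes, which is not a like reference for sums over many genes. Sums over other gene sets were not taken. These sums are not independent results, since the whole contains the families and Ugt2b34 alone made up 91.7% of UGT reads. Since the genes were grouped with results of these data known, the sums are given with no test.

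**Figure D5:**
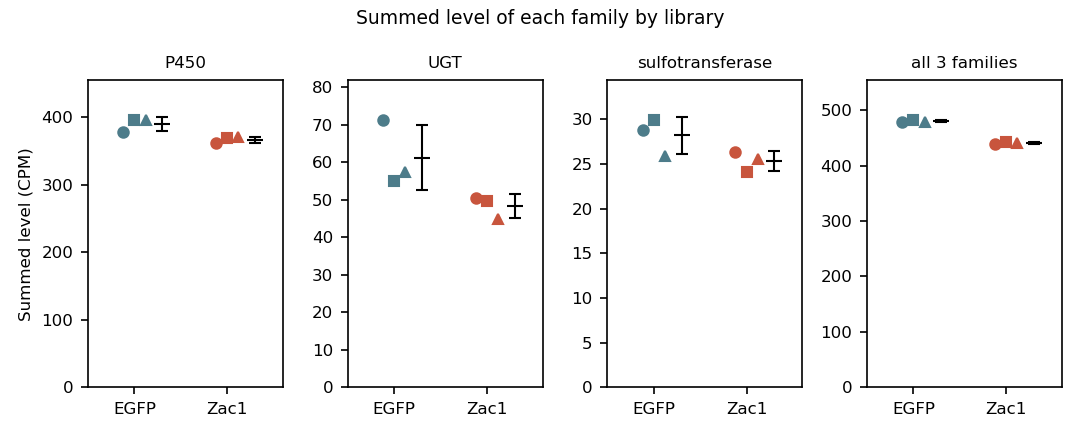
Summed CPM of each family in each library (circle, square and triangle for replicates 1, 2 and 3 in EGFP and 4, 5 and 6 in Zac1), with the mean and SD of each group as bars. The sum of all 3 families is 479 to 482 CPM in EGFP and 439 to 443 CPM in Zac1.

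Genes that regulate, supply or work beside these enzymes were taken as 6 lists. Of 88 listed partners and regulators, 87 were in the table and 64 were tested. Of these, 3 passed (4.69%, where 3.78% of all tested genes did). The median log2 fold change was -0.05 against -0.002 for all tested genes. Among all 12130 tested genes, 15.8% had an unadjusted p under 0.05 (6.43% lower), and 50.5% were below 0. DESeq2 called 428 of the 12130 and voom called 1297. Of 17 tested receptors and transcription factors 1 passed as lower. An unadjusted p under 0.05 was found for 4, of which 1 was lower and the others higher. DESeq2 called 2 and voom 4, in either direction. Fold changes were below 0 for 10 of the 17 and above 0 for 7 (median -0.04). Tiparp, an AhR target that limits AhR activity, fell from 164, 170 and 187 CPM to 151, 147 and 133 CPM (-0.27, SE 0.06, adjusted p = 0.0265). The groups stood apart, but the call was lost without EGFP replicate 3, Zac1 replicate 5 or Zac1 replicate 6 (adjusted p up to 0.188). The AhR gene itself, Ahr, was at 52 ± 3.68 CPM in EGFP and 46.9 ± 2.75 in Zac1 (SD, n = 3; adjusted p = 0.328). The PXR gene Nr1i2 was read 28.2 times per library on average, and the CAR gene Nr1i3 had 2 reads in all, both in Zac1 replicate 5.

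No supply gene passed the test. Of 14 tested genes of electron and heme supply 0 passed by edgeR, DESeq2 or voom, and 1 was lower at an unadjusted p under 0.05. Fold changes were below 0 for 6 of the 14 and above 0 for 8 (median 0.004). The 2 with the smallest p both lay below 0. Pgrmc1, a heme-binding partner of P450 enzymes, was at -0.10 (adjusted p = 0.309), and Fech, which inserts iron into heme, at -0.11 (adjusted p = 0.354). All 9 tested genes of the supply, transport or turnover of UDP-glucuronic acid and PAPS had fold changes below 0 (median -0.12). Of all tested genes 50.5% did. Among the 9, 0 passed by edgeR or DESeq2, and voom called 3. At an unadjusted p under 0.05, 3 of the 9 were lower, where 6.43% of all tested genes were. The 3 were the carrier genes Slc26a2, Slc35b2 and Slc35b3. Whether co-substrate supply to the UGT and SULT enzymes differed was not tested. The smallest p-values were those of Slc26a2, a sulfate transporter (-0.19, adjusted p = 0.166), and Slc35b2, which carries PAPS into the Golgi (-0.19, adjusted p = 0.204).

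Of 13 tested genes of other oxidising and hydrolysing enzymes 12 were below 0 (median -0.16), where 50.5% of all tested genes were. Of these 13, 1 passed by edgeR, DESeq2 called 0 and voom 4. At an unadjusted p under 0.05, 6 of the 13 were lower, where 6.43% of all tested genes were. Adh7, an alcohol dehydrogenase that also oxidises retinol, fell from 2.86, 3.09 and 3.37 CPM to 1.99, 1.53 and 1.36 CPM (log2 fold change -0.94, SE 0.23, adjusted p = 0.0309). All Zac1 libraries were below all EGFP libraries. The call was lost with DESeq2 (0.0548) and without EGFP replicate 2, EGFP replicate 3, Zac1 replicate 5 or Zac1 replicate 6 (up to 0.161). Of 7 tested conjugating enzymes 0 passed by edgeR, DESeq2 or voom and 1 had an unadjusted p under 0.05, Hnmt, the histamine methyltransferase (-0.57, adjusted p = 0.263); Nat2, an arylamine acetyltransferase, was at -0.17 (adjusted p = 0.509). Of 4 tested deconjugating genes 0 passed by these tools, and 0 had an unadjusted p under 0.05. Arsa, a lysosomal sulfatase, was at 0.17 (adjusted p = 0.387), and Sumf1, which activates sulfatases, at -0.08 (adjusted p = 0.627).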

How the data were processed

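Gene counts for the 6 libraries, unpooled, form the single table that the authors deposited. The tools named in the submitters' processing notes are STAR, HTSeq, DESeq2 and FastQC. Build, annotation and strand setting: not given in the sources used here. The library kit was directional, per the labels' protocols. The deposited table is called normalized, but it was treated as raw counts, since all values are whole, totals differ, and each library holds every value from 1 to 40. Symbols came from the GENCODE M21 table (49326 of 49585 IDs matched).

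A mean of 10 or more counts was required, which left 12130 genes, and these were tested for Zac1 minus EGFP with edgeR 4.0.16 in R 4.3.3 (TMM scaling, glmQLFit, glmQLFTest, two-sided, Benjamini-Hochberg, threshold 0.05). The standard error (SE) is the log2 fold change divided by the square root of F, and 95% intervals use the t distribution of that fit. CPM uses TMM-scaled totals; FPKM divides by exonic length in GENCODE M21. Replicate pairs differed by more than sampling noise (chi-square per degree of freedom 2.31 to 8.98). Simulated counts served to test the fit, and in them the share of false calls was above the threshold of 0.05. Every tested member was named, and from each partner list the genes past the test or, where none passed, the pair with the smallest p; 1 partner gene past the test is not reported here. Genes and lists were chosen with earlier results of these data known. Alternatives were 2 other scalings, 2 other filters, GC offsets, DESeq2 1.42.0, voom (limma 3.58.1) and libraries left out. No permutation p is given for family sums, although one had been planned.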

Additional observations from a re-analysis of the deposited data

How the results depend on the processing

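No member passed as higher under any of the 14 alternatives. The number that passed as lower, 1, was 0 with median-of-ratios scaling, upper-quartile scaling, a mean count of at least 50 (where 17 of the 27 remain tested) or GC offsets. It was 2 with no filter or voom, 3 without EGFP 1 and Zac1 4 together, and 0 to 2 with single libraries left out. Over all genes 459 passed, against 979 with no filter, 241 at a minimum mean count of 50, 1297 with voom, 1461 without EGFP 1 and Zac1 4 together, and 206 to 963 with single libraries left out. The fits with no filter and without both libraries shared the variance almost wholly over genes. Signs turned in 9 members, and 0 of these turned values passed. With voom, Cyp20a1 was at -0.003, Cyp4f16 at 0.10 and Cyp1b1 at -0.01. With GC offsets, Por was at -0.03 and Cyp4v3 at 0.0006. Without EGFP 1 and Zac1 4 together, Cyp4f16 was at 0.08 and Cyp1b1 at -0.10. With single libraries left out, log2 fold changes ran from -5e-05 to 0.06 for Cyp20a1, -0.07 to 0.15 for Cyp27a1, -0.12 to 0.07 for Cyp4f16, -0.04 to 0.14 for Cyp1b1, -0.49 to 0.08 for Ugt2b35, -0.61 to 0.10 for Ugt2b36, -0.66 to 0.05 for Sult1b1 and -0.21 to 0.06 for Cyp4v3. The cause of these changes was not tested. The 3 family sums kept their direction with scaling to library totals and with any library left out. No paired analysis was run, because the groups share no replicate number and the labels name no pairs. EGFP 1 and Zac1 4 stood at the same extreme in 42.6% of all tested genes. The fit took no account of this, and a pairing by library order was not tested. Counts of about 10 per library limit the lowest genes, whose intervals reach past 2-fold.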
